A study of Mus musculus with 8 samples.

Results

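The keratins of the interfollicular epidermis were followed as 9 genes, picked by symbol from the deposited count table: Krt5, Krt14 and Krt15 of the basal layer, and Krt1, Krt10, Krt2, Krt77, Krt78 and Krt80 of the layers above it. They are 9 of the 51 keratin rows and of the 23171 genes in the table, and 8 of them had enough counts to be tested. RNA sequencing was done on epidermis of mice with an epidermis-specific knockout of Hnrnp-u (cKO, n = 4), set against control mice with the wild-type label (WT, n = 4). Mice of both genotypes had received imiquimod, a Toll-like receptor 7 agonist that gives mouse skin a psoriasis-like inflammation, so untreated skin was not analysed here. The labels call the tissue epidermis, the cells keratinocytes and the batch the same throughout, and the series title joins hnRNP-U with TNF-α in psoriasis. The sources used here do not give the strain, the age, the deleted exons or the promoter that drives the recombinase.

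Keratins are intermediate filament proteins that assemble as pairs of 1 type I and 1 type II chain. Basal keratinocytes make the pair Krt5 (type II) and Krt14 (type I), and cells that leave the basal layer switch to Krt1 (type II) and Krt10 (type I). Later or site-restricted type II keratins, such as Krt2 in the upper layers of thick or tail skin, join them, and inflamed or wounded epidermis adds the stress keratins Krt6a, Krt6b, Krt16 and Krt17. In mouse, the type I members lie together on chromosome 11 and the type II members on chromosome 15.

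The libraries held 37158621 to 38865722 counts each, and 18265 to 18992 genes had at least 1 count. Hnrnpu itself stood at 12.6, 23.0, 25.1 and 22.3 FPKM in cKO replicates 1 to 4, against 30.2, 27.2, 27.2 and 28.3 FPKM in WT replicates 1 to 4. FPKM is the count scaled by gene length and by the library's total. Every cKO library was below every WT library, and the fitted log2 fold change was -0.51 ± 0.19 (SE, edgeR adjusted p = 0.191). The transcript was therefore lower without being absent, and cKO replicate 1 was the lowest. The keratinocyte label fits the member values, since the 9 genes took 6.33% to 8.47% of all counts in every library. Markers of other cell types were present too. Summed over 12 sebocyte genes, the level ran from 1313 to 3957 CPM (counts scaled to library size with TMM factors) in cKO and from 1052 to 1661 CPM in WT. The 12 outer root sheath and bulge genes summed to 470 to 715 CPM in cKO and 276 to 430 CPM in WT, and the 10 melanocyte genes to 62.3 to 125 CPM in cKO and 36.2 to 54.8 CPM in WT. For the root sheath and melanocyte sums the genotypes did not overlap, and their part in the keratin results was not tested. Scd1 weighs most in the sebocyte sum, with up to 99322 counts in a library, and Postn in the root sheath sum, with up to 13091. Of the sebocyte genes 11 of 12 had a positive fold change (median log2 1.29), of the root sheath and bulge genes 12 of 12 (median 0.86) and of the melanocyte genes 10 of 10 (median 1.14). Unadjusted, 8, 8 and 9 of them had a p below 0.05, against 18.6% of all tested genes. After adjustment over all genes, which 1.32% passed, 1 gene of each list rose, Cidea, Lgr6 and Mitf (edgeR adjusted p = 0.0440, 0.0386 and 0.0200). With single libraries left out, Cidea and Lgr6 were called in 2 of 8 fits each (highest adjusted p = 0.109 and 0.117) and Mitf in 5 of 8 (0.0790). No gene was called by edgeR among Langerhans and macrophage (summed 321 to 781 CPM in cKO, 368 to 486 CPM in WT), T cell (18.9 to 54.7 CPM in cKO, 13.5 to 66.9 CPM in WT) or neutrophil markers (1645 to 9519 CPM in cKO, 3706 to 17122 CPM in WT). In that order, 1 of 12, 3 of 7 and 0 of 4 tested genes had an unadjusted p below 0.05. Nor was any gene called among fibroblast (47.8 to 69.5 CPM in cKO, 54.3 to 92.6 CPM in WT) or endothelial markers (1.65 to 5.51 CPM in cKO, 3.29 to 12.9 CPM in WT). Of these, 0 of 6 and 1 of 3 tested genes had an unadjusted p below 0.05. The fibroblast sum came mostly from Fbln1 and Thy1, which averaged 12.3 and 9.04 FPKM, and Thy1 is also in the T cell list. The other fibroblast genes averaged from 0.0205 (Pdgfra) to 0.326 FPKM (Dcn), so that sum does not measure fibroblasts. The neutrophil sum came almost wholly from S100a8 and S100a9, which averaged 8172 and 7897 FPKM over the 8 libraries. The other neutrophil genes in the table were low, with Cxcr2 at 6.28, Retnlg at 1.35, Csf3r at 0.0799, Mpo at 0.0192 and Ngp at 0.0173 FPKM. Which cells made S100a8 and S100a9 was not tested, so that sum does not measure neutrophils. The T cell sum came mostly from Cd3g and Thy1, which averaged 10.63 and 9.04 FPKM. The 3 T cell genes with an unadjusted p below 0.05, Cd4, Lck and Cd2, were all higher in cKO. Their log2 fold changes were 2.837, 1.499 and 1.789 (edgeR adjusted p = 0.0582, 0.0545 and 0.212). In Cd4 (at most 31 counts) and Lck, every cKO library was above every WT library. Cd3e, Cd3d and Cd3g had -0.223, -0.6685 and -0.6317, and Thy1 0.2468. The T cell sum does not show these opposite directions. None of 6 muscle genes had enough counts to be tested (0.362 to 0.999 CPM in cKO, 0.375 to 0.968 CPM in WT). In bulk RNA, fewer cells of a type and less RNA per cell cannot be told apart.

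Promoter windows are shown for 3 type II members, Krt77 because it had the largest fold change, and Krt2 and Krt78 because they lie in the same gene cluster and stood at other levels. The windows are the 250 bases before the annotated start, from RefSeq on GRCm38.p6, minus strand, for Krt77 at chr15:101869706-101869955, for Krt2 at chr15:101818170-101818419 and for Krt78 at chr15:101954288-101954537. Capitals mark matches of TATATA, a form of the TATA box that was searched for.
Krt77: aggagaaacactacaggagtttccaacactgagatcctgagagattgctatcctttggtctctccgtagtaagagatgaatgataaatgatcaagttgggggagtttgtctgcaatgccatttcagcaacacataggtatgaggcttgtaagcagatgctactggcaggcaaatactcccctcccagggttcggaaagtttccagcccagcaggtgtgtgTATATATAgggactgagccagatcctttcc
Krt2: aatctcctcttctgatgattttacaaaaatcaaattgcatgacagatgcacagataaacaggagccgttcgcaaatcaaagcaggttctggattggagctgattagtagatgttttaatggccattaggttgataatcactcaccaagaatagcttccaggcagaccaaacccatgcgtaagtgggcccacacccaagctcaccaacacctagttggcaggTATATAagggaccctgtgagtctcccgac
Krt78: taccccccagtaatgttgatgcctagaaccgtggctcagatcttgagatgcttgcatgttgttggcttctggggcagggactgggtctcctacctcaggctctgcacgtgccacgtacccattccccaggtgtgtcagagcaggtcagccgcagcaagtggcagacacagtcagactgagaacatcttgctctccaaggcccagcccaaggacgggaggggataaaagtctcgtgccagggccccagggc
The table held a window for 6 of the 9 members. On the printed strand, Krt77 had 2 overlapping matches of TATATA, the nearer one beginning 28 bases before the start, and Krt2 had 1 at 29 bases. Krt10, whose window is not printed, had 1 at 28 bases that overlaps a match of TATAAA at 26 bases. Krt78, Krt5 and Krt14 had neither form, and for Krt5 and Krt14 no GENCODE vM21 transcript was found to begin near the RefSeq start. Only these exact forms were searched for, so a missing match does not show that a window lacks a TATA box of another form. On either strand, TATATA is found in 5.25% and TATAAA in 12.4% of the 32851 windows of the same length. The AP-1 motif TGANTCA (6.75% of all windows) and the AP-2 motif GCCNNNGGC (13.7%) had no match in any of the 6 member windows. The KLF and Sp1 motif CACCC (52.0% of all windows) had a match in Krt10, Krt14, Krt5 and Krt2 and none in Krt77 and Krt78. A match describes the letters of a window and no binding.

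Across the 8 tested members, none was called by the edgeR quasi-likelihood test at an adjusted p below 0.05, a threshold that 1.32% of the 14004 tested genes passed, 0.671% as higher and 0.65% as lower. Unadjusted, 3 members had a p below 0.05 (Krt14, Krt77 and Krt80), against 18.6% of all tested genes. Krt77 was the 1 tested member whose genotypes did not overlap, against 11.1% of all genes. DESeq2 called Krt77 and Krt80, against 8.63% of all genes, and limma-voom called none of the members. 5 members had a positive and 3 a negative fold change, and 51.9% of all genes had a positive one.

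**Figure D1:**
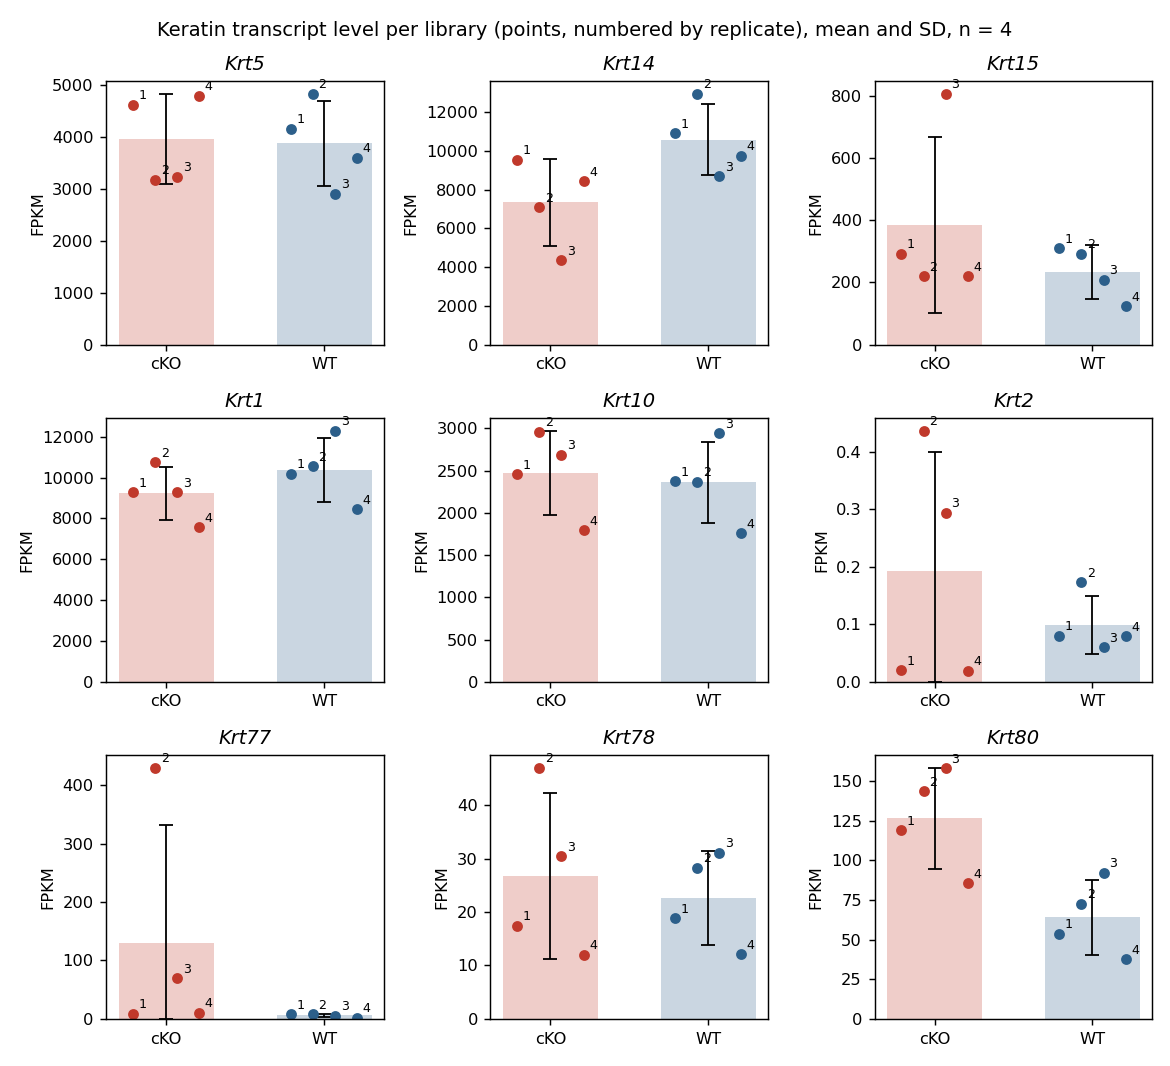
FPKM of each member keratin (vertical axes, linear, each panel with its own range) in cKO and WT libraries; points are libraries numbered by replicate, bars are means and whiskers the SD (n = 4, cut at 0 where they would fall below it). Krt14 is lower in 3 of 4 cKO libraries than in any WT library, and Krt77 is far above the rest in cKO replicate 2.

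Krt14, the type I chain of the basal pair, was lower on average in cKO, while its partner Krt5 had close to equal means. Krt14 stood at 9539, 7083, 4356 and 8441 FPKM in cKO replicates 1 to 4, against 10920, 12959, 8707 and 9757 FPKM in WT replicates 1 to 4. Replicates 2, 3 and 4 of cKO were below every WT library, and cKO replicate 1 lay within the WT range. The means were 7355 ± 2238 FPKM in cKO and 10586 ± 1822 FPKM in WT (SD, n = 4 each). The log2 fold change was -0.58 ± 0.24 (SE, 95% confidence interval -1.13 to -0.03, edgeR adjusted p = 0.246), and the two-sided exact permutation p was 0.0571. The smallest p that 4 against 4 libraries allows is 0.0286. Leaving out cKO replicate 3 gave -0.37.

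Krt5, the type II chain of that pair, stood at 4617, 3171, 3228 and 4789 FPKM in cKO, against 4155, 4829, 2905 and 3595 FPKM in WT. The genotypes overlapped over nearly their whole range, with means of 3951 ± 871 FPKM in cKO and 3871 ± 818 FPKM in WT (SD, n = 4 each). The log2 fold change was -0.03 ± 0.19 (SE, edgeR adjusted p = 0.953), with an interval of -0.46 to 0.40. Its sign depended on the scaling, at 0.0298 with library size only.

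Krt15, a type I keratin of basal cells that also marks follicle stem cells, was high in 1 library. It stood at 292, 220, 807 and 219 FPKM in cKO, against 310, 292, 209 and 124 FPKM in WT. Outside cKO replicate 3, all cKO values lay within the WT range. The log2 fold change was 0.64 ± 0.44 (SE, interval -0.35 to 1.62, edgeR adjusted p = 0.475), and without cKO replicate 3 it was 0.04. That library also had the lowest Krt14 and the highest summed root sheath and bulge markers, 715 CPM, and their part in its Krt15 level was not tested.

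Krt1 and Krt10, the pair that replaces the basal keratins in the spinous layer, had overlapping genotypes. Krt1 stood at 9284, 10766, 9295 and 7576 FPKM in cKO, against 10203, 10566, 12299 and 8467 FPKM in WT. Its log2 fold change was -0.22 ± 0.18 (SE, interval -0.63 to 0.19, edgeR adjusted p = 0.558). Krt10 stood at 2454, 2958, 2688 and 1792 FPKM in cKO, against 2373, 2368, 2940 and 1758 FPKM in WT. Its log2 fold change was 0.02 ± 0.22 (interval -0.48 to 0.52, edgeR adjusted p = 0.980). In both genes replicate 4 was the lowest library of each genotype.

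The deposited FPKM of Krt10 implies a gene length of 10555 bases, against 2094 bases for its transcript in GENCODE vM21. For Krt78 the lengths are 5503 and 3437 bases, and the other members lie within 0.997 to 1.08 times their transcript. Levels of Krt10 and Krt78 beside other keratins are therefore low by these factors, 5.04 and 1.60, if all counted reads come from the transcript. The length itself cancels in fold changes between genotypes. Whether the longer gene lengths brought in reads from outside the transcripts was not tested.

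Krt77, a type II keratin known from sweat gland ducts in human skin and from upper epidermis in mouse, had the largest fold change of the members and the widest spread. It stood at 8.92, 430, 69.2 and 10.6 FPKM in cKO, against 8.51, 7.85, 5.44 and 1.88 FPKM in WT, from 1002, 48179, 7853 and 1207 counts in cKO and 944, 855, 600 and 211 counts in WT. All cKO libraries were above all WT libraries, but cKO replicates 1 and 4 were above the highest WT library by a small margin, while replicates 2 and 3 stood far higher. The highest cKO library was 48.2 times the lowest. The fitted log2 fold change was 4.49 ± 1.28 (SE), a 22.5-fold higher level with an interval of 3.06-fold to 166-fold, and the edgeR adjusted p was 0.109. The exact permutation p was 0.0286, the smallest possible. Averaged over log2 FPKM the difference was 3.001, and the fitted value without cKO replicate 2 was 2.21.

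Of the 5 eccrine gland markers listed, 3 had a row in the count table, namely Krt77, Foxc1 and Aqp5. The transcription factor gene Foxc1 rose (log2 fold change 1.19, edgeR adjusted p = 0.0329). It was called in 2 of 8 fits that left out 1 library (highest adjusted p = 0.0929), and which cells made it was not tested. The water channel gene Aqp5 had 0.65 (adjusted p = 0.478). Foxc1 was highest in cKO replicate 4, at 13.0 FPKM, and Aqp5 in cKO replicate 1, at 11.5 FPKM. Neither was highest in cKO replicate 2, where Krt77 was, and their part in the Krt77 result was not tested.

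Krt80, a type II keratin of differentiated epithelial cells, was higher on average in cKO. It stood at 119, 144, 158 and 85.6 FPKM in cKO, against 53.7, 72.8, 92.3 and 37.6 FPKM in WT. Replicates 1, 2 and 3 of cKO were above every WT library, and cKO replicate 4 was between WT replicates 2 and 3. The log2 fold change was 0.92 ± 0.30 (SE, 1.90-fold, interval 0.26 to 1.59), with an edgeR adjusted p of 0.143 and an exact permutation p of 0.0571. Its exons overlap an antisense gene, Gm35853, which had at most 284 counts in any library where Krt80 had at least 4777. Exons of Krt5 and Krt10 also overlap antisense genes, Gm44323 and Gm11940. Neither has a row in the count table, so their reads could not be compared.

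Krt78, a type II keratin of suprabasal cells, stood at 17.4, 47.0, 30.4 and 12.04 FPKM in cKO, against 18.9, 28.3, 31.1 and 12.1 FPKM in WT. The genotypes overlapped with a log2 fold change of 0.21 ± 0.45 by edgeR (SE; adjusted p 0.855), and the value was -0.28 without cKO replicate 2. Krt2 was at most 0.436 FPKM, with 2, 44, 30 and 2 counts in cKO, against 8, 17, 6 and 8 counts in WT, and was not tested by edgeR. Replicates 2 and 3 of cKO were above and replicates 1 and 4 below all WT libraries, and the exact permutation p was 0.886.

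**Figure D2:**
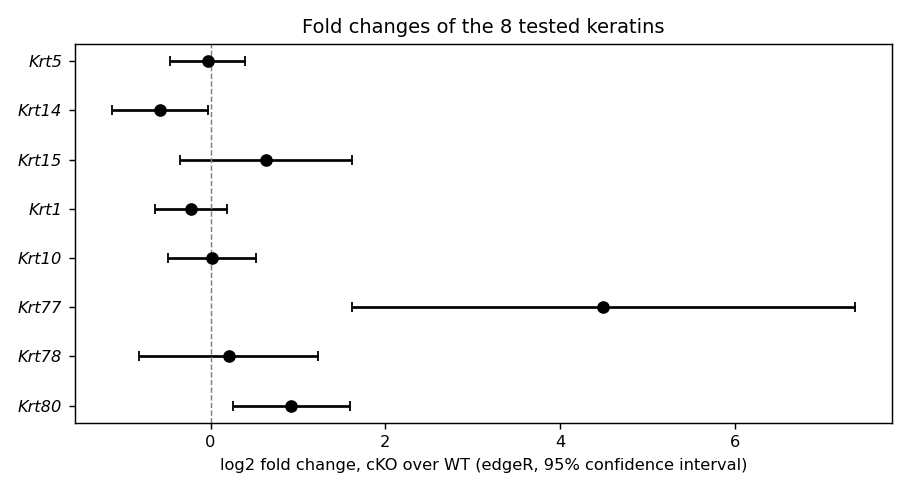
log2 fold change of each of the 8 tested members (horizontal axis, cKO over WT) from edgeR, with 95% confidence intervals; the dashed line marks no difference. The intervals of Krt14, Krt77 and Krt80 leave out 0 before adjustment over all genes, and Krt77 has the widest.

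The suprabasal members were also ordered over the libraries of each genotype. Of the 6 suprabasal members, 5 were highest among cKO libraries in replicate 2, as were 15.3% of all tested genes, and 5 were lowest in replicate 4, as were 18.6%. Among WT libraries, 4 were highest in replicate 3 (21.1% of all tested genes) and 5 were lowest in replicate 4 (27.5%). These counts describe 8 libraries and were not tested.

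**Figure D3:**
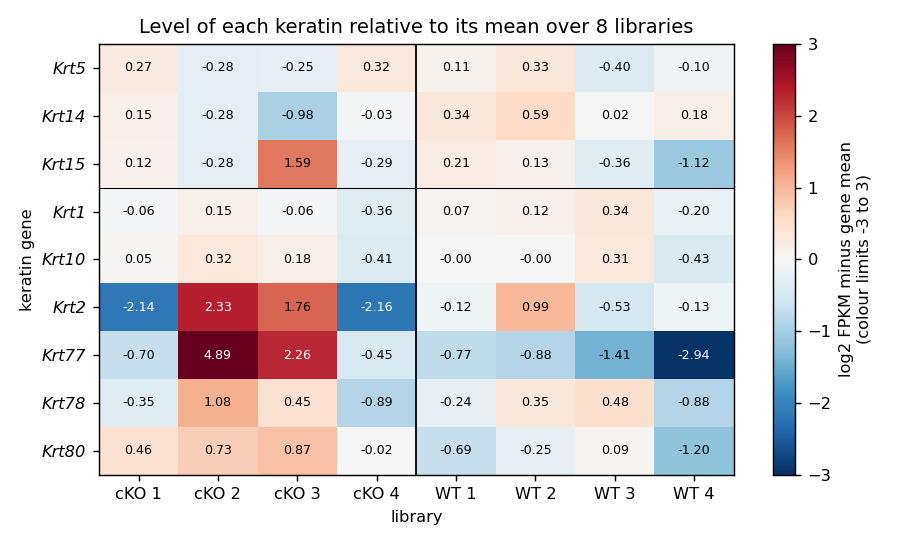
Level of each member keratin (rows) in each library (columns, cKO left of WT) as log2 FPKM minus the average of the gene; red is above and blue below that mean, and colours stop at 3 in either direction. Krt77 and Krt2 vary most, and cKO replicates 2 and 3 hold their highest values.

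Likeness between genes was measured as the root mean square difference of log2 CPM across the 8 libraries, after subtracting the average of each gene. Among the 28 pairs of tested members, Krt1 and Krt10 were closest at 0.150, Krt5 and Krt14 next at 0.361, and Krt5 and Krt1 followed at 0.417. These are the spinous and the basal pair, then a pair across layers. Krt5 and Krt1 lay further apart than either deviated from its own mean (root mean square 0.257 and 0.259). Their rank goes with their small spread and does not show that they rose and fell together. The distance grows with the spread of a gene, and pairs share libraries and depth, so these values describe and do not test. Of the 8461 candidate genes averaging 10 CPM or more, those nearest to Krt5 were Asph, Tspo and Sdhd (0.0850 to 0.0912), and those nearest to Krt14 were Pkm, Cd81 and Dapk2 (0.0857 to 0.154). Krt1 had Pigo, Dhrsx and Klk11 (0.0874 to 0.105) and Krt10 had Ctsa, Elovl7 and Epas1 (0.0901 to 0.113).

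Krt15 was nearest to Lbh, Dpysl3 and Heph (0.173 to 0.309), Krt78 to Marchf3, Dnase1l2 and Asprv1 (0.137 to 0.171) and Krt80 to Ctsl, Anxa9 and Rnf39 (0.163 to 0.173). Lbh, like Krt15, was highest in cKO replicate 3, at 17.3 FPKM. Nearest to Krt77 were Flg2, Lce1m and Gprin2 at 0.815 to 0.889, where Krt77 itself deviated from its mean by a root mean square of 2.29, against 0.257 for Krt5 and 0.259 for Krt1. Flg2, a filaggrin-like protein of the cornified layer, stood at 3.64, 32.3, 18.1 and 1.56 FPKM in cKO, against 2.81, 3.10, 1.98 and 0.303 FPKM in WT. The late cornified envelope gene Lce1m stood at 21.9, 224, 174 and 10.8 FPKM in cKO, against 12.5, 22.7, 9.63 and 1.52 FPKM in WT. Both were highest in cKO replicates 2 and 3, as Krt77 was, and neither passed edgeR (adjusted p = 0.181 for Flg2 and 0.151 for Lce1m).

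The pair ratios ask whether partner chains keep their proportion, and a ratio within a library does not depend on library scaling. The basal pair had no overlap between genotypes, and of the 11 ratios computed only Krt10 over Krt77 had none either. Of all single genes tested, 11.1% had no overlap in either direction. Krt14 over Krt5 in FPKM was 2.07, 2.23, 1.35 and 1.76 in cKO, against 2.63, 2.68, 2.998 and 2.71 in WT. Every cKO library was below every WT library, with means of 1.85 ± 0.388 in cKO and 2.76 ± 0.165 in WT (SD, n = 4 each). The log2 difference was -0.60, the exact permutation p was 0.0286, and adjusted over the 11 ratios computed it was 0.157. Leaving out single libraries gave -0.69 to -0.45.

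For the suprabasal pair, Krt10 over Krt1 was 0.264, 0.275, 0.289 and 0.237 in cKO, against 0.233, 0.224, 0.239 and 0.208 in WT. Only cKO replicate 4 lay within the WT range. The log2 difference was 0.24 (exact permutation p = 0.0571, adjusted 0.157). With transcript lengths from GENCODE the means were 1.35 ± 0.113 in cKO and 1.14 ± 0.0689 in WT (SD, n = 4 each). In FPKM the means were 0.266 ± 0.0222 in cKO and 0.226 ± 0.0136 in WT.

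**Figure D4:**
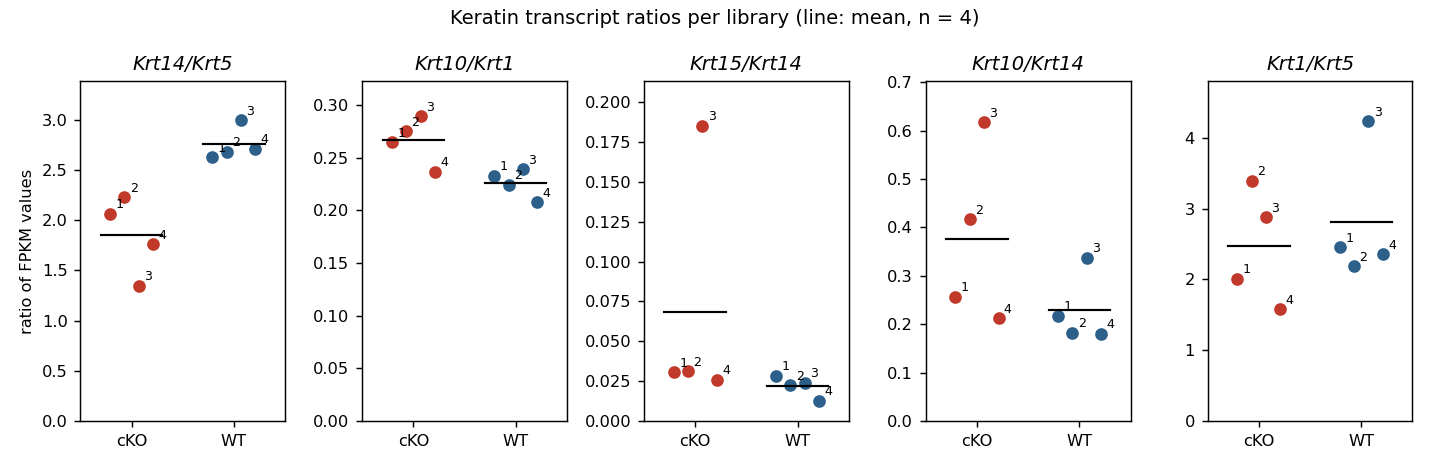
Ratio of FPKM values (vertical axes, linear, from 0) for 5 pairs of members in each library; points are libraries numbered by replicate, with cKO left of WT, and lines are means (n = 4). Krt14/Krt5 is lower in all cKO libraries than in any WT library, and Krt15/Krt14 is set apart by cKO replicate 3.

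Krt15 over Krt14, both type I keratins of basal cells, was 0.0306, 0.0311, 0.185 and 0.0259 in cKO, against 0.0284, 0.0226, 0.0240 and 0.0127 in WT. The log2 difference was 1.14 (exact permutation p = 0.0571, adjusted 0.157), and 0.47 without cKO replicate 3. Krt15 over Krt5 had a log2 difference of 0.54 (exact p = 0.486). Krt10 over Krt77 was 275, 6.89, 38.8 and 169 in cKO, against 279, 302, 541 and 934 in WT (log2 difference -2.93, exact p = 0.0286, adjusted 0.157). cKO replicate 1 was just below the lowest WT library.

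Between layers, Krt10 over Krt14 was 0.257, 0.418, 0.617 and 0.212 in cKO, against 0.217, 0.183, 0.338 and 0.180 in WT, with overlap (log2 difference 0.64, exact permutation p = 0.200). With transcript lengths its means were 1.87 ± 0.912 in cKO and 1.14 ± 0.369 in WT (SD, n = 4 each). Krt1 over Krt5 was 2.01, 3.40, 2.88 and 1.58 in cKO, against 2.46, 2.19, 4.23 and 2.36 in WT (-0.20, exact p = 0.571). The summed suprabasal over the summed basal members averaged 1.09 ± 0.381 in cKO and 0.902 ± 0.269 in WT in deposited FPKM (SD, n = 4 each, exact p = 0.457). With transcript lengths, where Krt10 counts for more, the ratio averaged 1.985 ± 0.734 in cKO and 1.555 ± 0.490 in WT (exact p = 0.286). The summed type I over type II members averaged 0.758 ± 0.120 in cKO and 0.921 ± 0.102 in WT in deposited FPKM (SD, n = 4 each, exact p = 0.114). With transcript lengths it averaged 1.503 ± 0.0711 in cKO and 1.591 ± 0.0405 in WT (exact p = 0.114), so type I was the larger sum. Ratios with Krt2 had exact p-values of 0.914 and 0.943. None of the 11 ratios passed 0.05 after adjustment, which does not show that the proportions were equal. Even at the smallest possible permutation p, 0.0286, a single ratio could not pass after adjustment over 11. The adjusted values therefore cannot decide about a single ratio.

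As shares of all keratin FPKM in a library, the members together held 68.6%, 77.4%, 85.2% and 68.3% in cKO, against 72.1%, 68.6%, 71.8% and 63.3% in WT. The stress keratins Krt6a, Krt6b, Krt16 and Krt17 held 28.2%, 18.8%, 7.69% and 26.95% in cKO, against 25.8%, 29.8%, 26.3% and 35.3% in WT. The 2 sets are the greater part of the pool, so a low share of one goes with a high share of the other, most plainly in cKO replicate 3. By member, Krt1 held 29.7% ± 7.56 in cKO and 26.1% ± 4.52 in WT, and Krt14 22.5% ± 3.32 in cKO and 26.4% ± 2.53 in WT (SD, n = 4 each). Krt5 held 12.4% ± 1.89 in cKO and 9.65% ± 1.41 in WT, and Krt10 8.01% ± 2.63 in cKO and 5.94% ± 1.35 in WT. With transcript lengths Krt10 held 29.99% ± 7.53 in cKO and 24.0% ± 4.33 in WT. Krt80 held 0.417% ± 0.178 in cKO and 0.161% ± 0.0608 in WT, and Krt77 0.420% ± 0.625 in cKO and 0.0146% ± 0.00712 in WT. For both, the exact permutation p was 0.0286, the smallest possible, and 0.129 adjusted over the 9 members. At that smallest p, these shares could not pass 0.05 by themselves after adjustment.

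**Figure D5:**
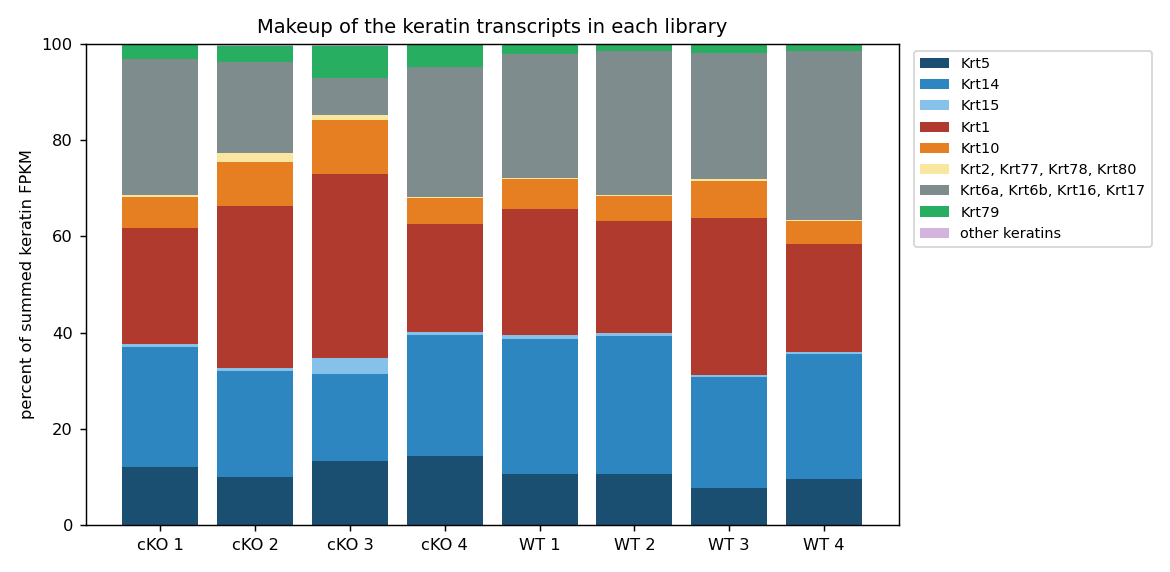
Percent of summed keratin FPKM (vertical axis, 0 to 100) held by members and other keratins in each library, cKO left of WT. The stress keratins hold 7.69% in cKO replicate 3, where the members hold 85.2%.

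Related gene lists were read by their counts against all genes (1.32% called, median log2 fold change 0.01). Of 4 stress keratins, none was called by edgeR, DESeq2 or limma-voom, and none had an unadjusted p below 0.05 (median -0.89). For 2 of them, Krt6b and Krt16, every cKO library was below every WT library, against 11.1% of all genes without overlap in either direction. The margins were small. Krt6b stood at 2220 FPKM in cKO replicate 1 and 2224 FPKM in WT replicate 3, and Krt16 at 3512 FPKM in cKO replicate 1 and 3645 FPKM in WT replicate 1. Krt17 had a positive value, 0.36. Krt16 averaged 2268 ± 1288 FPKM in cKO and 4438 ± 583 FPKM in WT, and Krt6a 2054 ± 1463 FPKM in cKO and 3345 ± 829 FPKM in WT (SD, n = 4 each). Of 6 tested follicle and companion keratins, 2 rose, Krt75 of the companion layer (2.71, edgeR adjusted p = 0.0061) and Krt79 of the follicle infundibulum (0.95, adjusted p = 0.0301). Leaving out single libraries, Krt75 was called in 8 of 8 fits and Krt79 in 2 of 8 (highest adjusted p = 0.0868). Krt79 held 4.43% ± 1.61 of keratin FPKM in cKO and 1.68% ± 0.312 in WT (SD, n = 4 each). The nail and hair keratins Krt84 and Krt32 had -0.05 and 0.50. Of 6 tested simple and mucosal keratins, 1 fell, Krt18 (-2.40, adjusted p = 0.0411), which had at most 19 counts in a library. It was called in 1 of 8 fits that left out a library (adjusted p 0.0494 to 0.108) and not by limma-voom (0.0536).

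Among the attachment genes of basal cells, none of 12 hemidesmosome and basal adhesion genes was called, and 10 were negative (median -0.32). Unadjusted, 5 of the 12 had a p below 0.05, against 18.6% of all tested genes. DESeq2 called 3, against 8.63% of all tested genes, and limma-voom called 0. The same 2 shares stand beside the counts of the lists that follow. Col17a1, the hemidesmosomal collagen, had -0.12 and Itga6, an integrin chain of hemidesmosomes, -0.69 (edgeR adjusted p = 0.109). Of 18 desmosome and keratin linker genes none was called, with 13 negative (median -0.21, 7 with an unadjusted p below 0.05, 2 called by DESeq2 and 0 by limma-voom). Perp stood at -0.16 and Pkp1 at -0.28. Of 25 spinous and granular genes, 1 fell, the transglutaminase gene Tgm3 (-1.11, edgeR adjusted p = 0.0363), and 16 were positive (median 0.23, 7 with an unadjusted p below 0.05, 3 called by DESeq2 and 1 by limma-voom). Tgm3 was called in 2 of 8 fits that left out a library (adjusted p 0.0442 to 0.108). Krtdap had 0.13 and Calm4 0.23. None of 33 regulators of keratin genes was called, with 15 positive and 18 negative (median -0.05, 9 with an unadjusted p below 0.05, 5 called by DESeq2 and 0 by limma-voom), and Cebpa stood at 0.00 and Cebpb at 0.02.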

How the data were processed

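Counts per gene symbol and FPKM values were deposited by the authors for 8 libraries. HISAT2 and HTSeq were used, per the submitters' processing notes; the sources used here do not give versions, build, annotation, strand setting or the handling of reads shared by similar keratins. The deposited FPKM is the deposited count scaled by gene length and library total: 20863 of 20863 genes gave the same length in every library (relative tolerance 1e-04). Members and lists were chosen with earlier results of these data known.

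Counts were filtered with filterByExpr (14004 genes) and scaled with TMM factors (0.934 to 1.08). Genotypes were compared with edgeR 4.0.16 in R 4.3.3 by its quasi-likelihood test without covariates, adjusted by Benjamini-Hochberg over all tested genes. Alternatives used DESeq2 1.42.0 and limma 3.58.1. Exact two-sided permutation tests over samples used the 70 arrangements of cKO and WT, on log2 CPM for genes, on log2 FPKM ratios and on shares. The design text gives 4 mice per genotype. On simulated counts over 14004 genes, 56 of 100 genes changed 2-fold and 94 of 100 changed 4-fold were recovered, with 156 calls, 6 of them false. No pair of libraries of a genotype agreed within sampling noise (lowest chi-square per degree of freedom 47.9). All members were named, up to 2 called genes per direction and up to 2 uncalled genes of highest mean FPKM per list, and the 3 nearest genes per member. Transcript lengths from GENCODE vM21 were added after seeing the data.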

Additional observations from a re-analysis of the deposited data

Results flagged for a closer look

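In groups of 4 libraries, a value was picked out where its gap to the nearest other library was large against the whole range of the group. Of 58 groups checked 6 were picked out, where chance gives about 1 in 20. Krt15 stood at 807 FPKM in cKO replicate 3, with the next cKO library at 292 FPKM. The same library had the high ratios Krt15/Krt5 (0.250, next 0.0694) and Krt15/Krt14 (0.185, next 0.0311), and Krt15 held 3.33% of its keratin FPKM (next 0.761%). These 4 values rest on 1 transcript in 1 library. Krt77 stood at 430 FPKM in cKO replicate 2, with the next cKO library at 69.2 FPKM. Krt1/Krt5 was 4.23 in WT replicate 3, with the next WT library at 2.46.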

How the results depend on the processing

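DESeq2 called 1208 genes, 8.63% of those tested, against 185 by edgeR, and 2 members, Krt77 (4.49) and Krt80 (0.92). It called 2 simple and mucosal keratins, 3 hemidesmosome, 2 desmosome, 3 spinous and granular and 5 regulator genes. Without a low-count filter 349 genes were called, with 1 hemidesmosome and 2 spinous genes, and limma on log2(FPKM + 1) without a filter called 19 genes, with 1 follicle keratin and 0 spinous genes. Scaling by library size only gave 2 spinous genes. The call among simple keratins was 0 with a filter of 1 CPM in 4 libraries, in limma on FPKM and in limma-voom. Krt5 turned to 0.0298 with library size only and to 0.0278 in limma on log2(FPKM + 0.1), log2(FPKM + 1) and log2(FPKM + 1) without a filter.

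Same-numbered libraries did not all deviate together (correlations of deviations -0.0884, 0.116, 0.101 and 0.182), so the numbers were not taken to pair them. cKO replicates 2 and 4 correlated best with the WT library of their own number, and cKO replicates 1 and 3 with WT replicates 4 (0.176) and 1 (0.148). With the replicate number as a block 216 of 14004 genes were called, with 1 member, Krt80 (0.96, edgeR adjusted p = 0.0267), 1 hemidesmosome gene and 1 follicle keratin.

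Leaving out single libraries gave 8 to 506 called genes, 0 to 0 members, 0 to 2 desmosome, 1 to 2 follicle, 0 to 2 hemidesmosome, 0 to 3 regulator, 0 to 1 simple and 0 to 2 spinous genes. The count was 20, 506, 66 and 213 without cKO replicates 1 to 4, and 34, 36, 8 and 23 without WT replicates 1 to 4. Ranges that crossed 0 were Krt5 -0.14 to 0.11, Krt10 -0.12 to 0.17, Krt78 -0.28 to 0.46, Krt1/Krt5 -0.37 to 0.0192, Krt2/Krt1 -0.65 to 0.76 and Krt10/Krt2 -0.52 to 0.87. The other members kept their sign, at -0.73 to -0.37 for Krt14, -0.34 to -0.11 for Krt1, 0.04 to 0.85 for Krt15, 2.21 to 4.87 for Krt77 and 0.74 to 1.17 for Krt80. The cause of these shifts was not tested. With 4 libraries a genotype, no permutation p can go below 0.0286, and with 11 ratios none passed after adjustment. A single ratio at that smallest p could not have passed. Transcript lengths, chosen after seeing the data, kept the direction of all ratios and shares but not every size: the type I over type II difference was -0.08 against -0.29 in deposited FPKM, and the share differences were 6.04 against 2.07 points for Krt10, 1.19 against 3.53 for Krt1, 1.61 against 2.73 for Krt5 and 0.000286 against 0.000431 for Krt2.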

Other observations

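Further keratins outside the members varied as follows. Krt23, a type I keratin, stood at 36.1, 102, 106 and 29.2 FPKM in cKO, against 15.8, 27.8, 26.3 and 5.81 FPKM in WT. In FPKM all cKO libraries were above all WT libraries, by a small margin between cKO replicate 4 and WT replicate 2. Of all tested genes 11.1% had no overlap in either direction, counted in CPM. The log2 fold change of Krt23 was 1.80 (edgeR adjusted p = 0.138). Krt24, also type I, stood at 1.30, 0.552, 1.29 and 4.96 FPKM in cKO, against 0.286, 0.262, 0.0144 and 0.0425 FPKM in WT (3.63, edgeR adjusted p = 0.0718). Krt7, a type II keratin of simple epithelia, stood at 2.12, 2.09, 2.80 and 0.211 FPKM in cKO, against 0.650, 0.560, 1.21 and 0.544 FPKM in WT (1.24, edgeR adjusted p = 0.341), and cKO replicate 4 was below every WT library. Krt24 was named after its values were seen.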
